A study of Mus musculus with 15 samples.

Results

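Untreated mouse colon was profiled in 5 polyadenylated RNA libraries, the control group of a series of 15 that concerns chemically induced colorectal tumours and the herbal formula Wumei Wan. The 5 were chosen by their label alone, a treatment given as Control, and their levels are described without reference to the treated groups. The labels give C57BL/6 mice of wild-type genotype, left untreated, and name both colon tissue and colon epithelial cells as the material. Age and the way cells or tissue were collected are not given in the sources used here. The libraries are called replicates and are not said to come from separate animals, so the spread between them may be technical. Levels are in FPKM, fragments scaled to transcript length and to the size of the library, which allows genes to be compared per length. They are written as mean ± SD with n = 5 libraries, and a set of 5 values follows replicates 1 to 5.

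The colon wall is lined by a mucosa folded into crypts, with stem cells at the crypt base and absorptive colonocytes, goblet cells and rarer endocrine and tuft cells above them. Colonocytes take up salt, water and short-chain fatty acids, while goblet cells secrete the mucus that keeps bacteria away from the surface. Below the epithelium lie a lamina propria rich in IgA-secreting plasma cells, and smooth muscle layers with the enteric nervous system between them.

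The labelled epithelial identity was checked against marker genes. The 14 markers shared by intestinal epithelium all stood at 100 FPKM or more, from Cdx2 at 109 ± 3.2 FPKM to Krt8 at 2709 ± 14.2 FPKM. Markers of other tissue layers were present as well: all 14 smooth muscle genes, all 16 macrophage genes and all 12 blood endothelial genes were at 1 FPKM or more in all 5 libraries. By these muscle, macrophage and endothelial markers, the libraries held RNA of more than the labelled cell type. Digestive enzyme genes of the exocrine pancreas were among the highest transcripts, and their source was not tested. In bulk RNA, fewer cells of a type and less RNA per cell cannot be told apart.

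Of 22063 genes, 11959 (54.2%) were at 1 FPKM or more in all 5 libraries, and this share is the background for every list below. At 10, 100 and 1000 FPKM or more there were 5842, 731 and 59 genes, while 4520 genes were listed at 0 throughout. The median gene stood at 2.07 FPKM. The libraries held 17400000 to 21100000 fragments as worked back from the low values, so a transcript of 2000 nucleotides listed at 0 in a library could still lie at up to 0.071 to 0.086 FPKM (3 fragments, counting error only). Libraries correlated at r = 0.9945 to 0.9952 across 12436 genes on the log2(FPKM + 1) scale, a correlation across genes, which are not independent replicates. None stood apart: each library was the highest of the 5 for 17.0% to 23.9% of genes of at least 10 FPKM, and the lowest for 18.3% to 20.9%.

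The spread between libraries was small and shrank with the level. The median coefficient of variation (CV, the SD as a share of the mean) was 10.3% for genes of 1 to 10 FPKM, 4.7% for 10 to 100 FPKM, 2.64% for 100 to 1000 FPKM and 1.43% above that. For 1293 genes with 1 annotated transcript and at least 10 fragments, the variance was a median of 2.14 times that of counting alone. The ratio was 2.0 for genes of 10 to 30 fragments, 2.0 for those of 100 to 300 and 6.06 for those over 10000. For the 10 pairs of libraries it ran from 1.92 to 2.37. The ratio takes each worked-back fragment as an independent count, which was not tested. It therefore cannot show that each pair differed by more than counting alone gives.

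**Figure D1:**
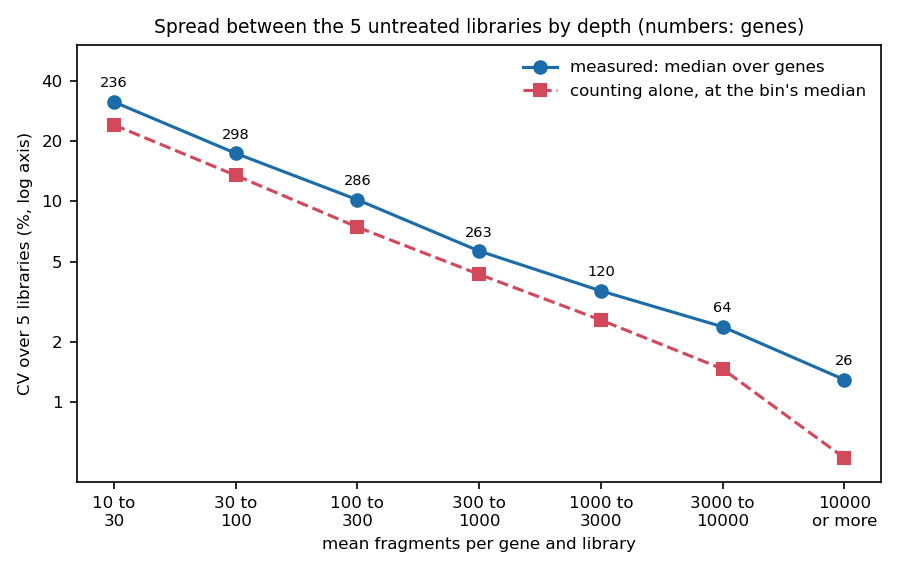
Coefficient of variation over the 5 untreated libraries (vertical log axis, %) against the mean number of fragments per gene and library, for genes with 1 annotated transcript. Blue circles are medians over the genes of each bin, whose number stands above. Red squares are what counting alone gives if fragments are independent. The measured median fell from 31.4% in the lowest bin to 1.29% in the highest and lay above the red square in each bin.

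A short list of genes held much of the measured RNA. The highest gene took 3.37% of the summed FPKM, the 10 highest 14.3% ± 0.078, the 25 highest 21.9% and the 100 highest 36.7%. It took 271 genes to reach 50% of the total and 4370 to reach 90%. Among the 25 highest, 7 were encoded by the mitochondrial genome, 7 were pancreatic digestive enzymes and 2 were immunoglobulin constant regions. The other 9 were Sprr2a2, Lypd8, Car1, Zg16, Clca1, Krt8, Mptx1 and Ceacam1, known from intestinal mucosa, and the translation elongation factor Eef1a1.

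**Figure D2:**
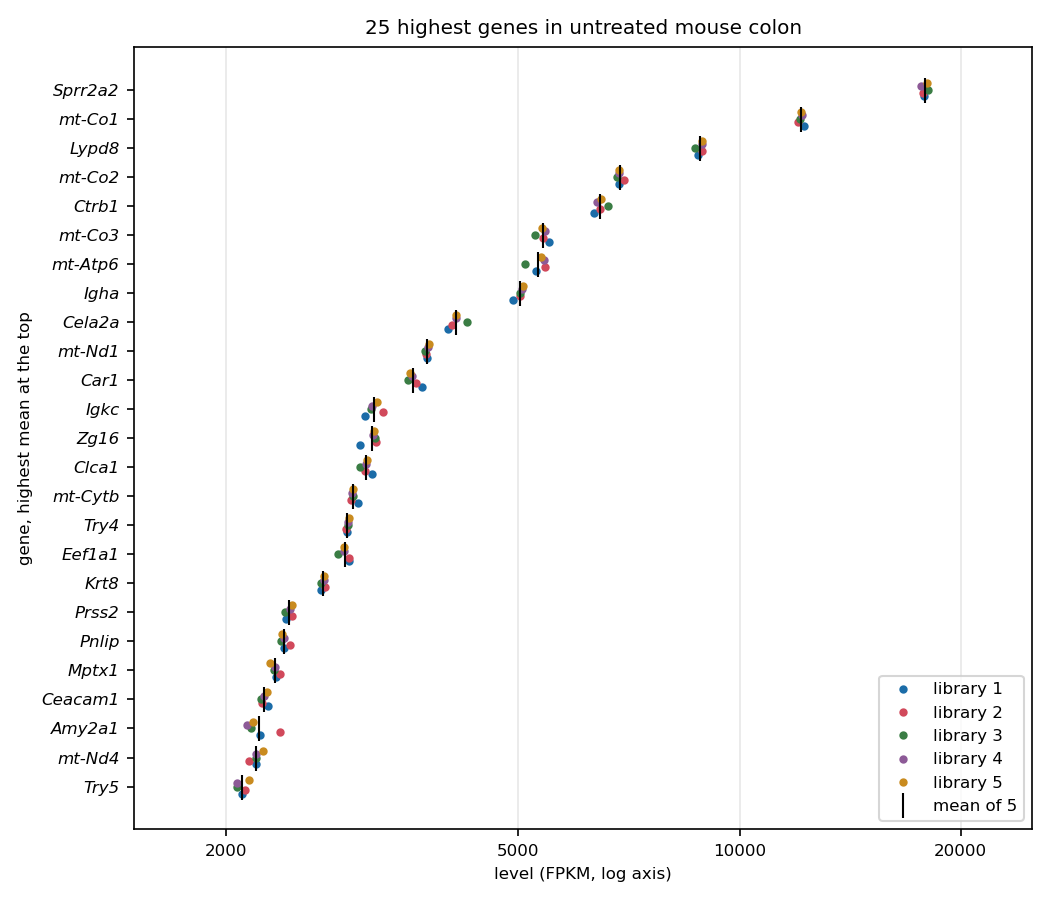
Levels of the 25 highest genes (horizontal log axis, FPKM), ordered by mean, with a coloured point for each of the 5 untreated libraries and a black bar at the mean. The points of a gene lie close together, and Sprr2a2 at 17671 to 18062 FPKM and mt-Co1 at 12014 to 12252 FPKM stand clear of the genes below them.

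Sprr2a2 (ENSMUSG00000068893), a small proline-rich protein of the cornified envelope family that is also made by intestinal epithelium, was the highest gene of all. It stood at 17805, 17769, 18062, 17671 and 17976 FPKM in the 5 libraries, a mean of 17857 ± 159 FPKM. Its near-identical copies Sprr2a3 and Sprr2a1 were listed at 626 ± 9.5 and 163 ± 4.9 FPKM, so the division of reads among the 3 copies is uncertain. Together they made up nearly all of the Sprr2 level: of 11 Sprr2 genes, 5 were listed at 0 in all libraries and none but these 3 had a mean above 0.18 FPKM. Sprr1a, its relative of squamous epithelium, was at 30.9 ± 2.2 FPKM. The other squamous genes were nearly silent, with Krt5, Krt13, Krt4 and the squamous master regulator Trp63 at 0.046, 0.0944, 0.0196 and 0.0306 FPKM, Krt14 at 0.164, Dsg3 at 0.115 and Krt10 at 0.792 FPKM.

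Lypd8 (ENSMUSG00000013643), which binds flagellated bacteria and keeps them off the colonic surface, was the highest nuclear gene after Sprr2a2, at 8785, 8894, 8694, 8874 and 8879 FPKM. The lowest library of Sprr2a2 lay above the highest of Lypd8, at a ratio of 2.02 ± 0.034. Its neighbour in the gene family, Lypd8l, was at 83.1 ± 3.0 FPKM. Lypd8 alone held 53% of the summed level of 18 antimicrobial proteins, of which 15 were at 1 FPKM or more in all libraries. It was followed there by Zg16, a lectin that binds Gram-positive bacteria, Retnlb, Ang4 and Dmbt1 at 1226 ± 17.7 FPKM. Next came the peptidoglycan-binding Pglyrp1 at 202 ± 9.3 FPKM and serum amyloid A Saa1 at 179.6 ± 7.9 FPKM, whose values in the libraries overlapped with those of Reg3b at 178 ± 5.7 FPKM. At the low end stood Lcn2 at 4.88 ± 0.73, Saa3 at 2.88 ± 0.88, Saa2 at 0.245, Camp at 0.0876 and Bpi at 0.0116 FPKM, several of them known to be induced in inflamed colon.

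Among the shared epithelial genes, the type II keratin Krt8 (ENSMUSG00000049382) led at 2692, 2723, 2697, 2714 and 2721 FPKM. Krt18, its usual filament partner, stood at 390.3 ± 5.4 FPKM, so that Krt8 exceeded it 6.94 ± 0.098 times, and the type I keratins Krt19 at 1414 ± 11.7 and Krt20 at 575 ± 9.4 FPKM both lay above Krt18. Summed, Krt18, Krt19 and Krt20 came close to the level of Krt8. Of 19 keratins, 8 were at 1 FPKM or more in all libraries. After these 4 came Krt7 at 48.8 ± 2.6 FPKM and Krt23 at 5.4 ± 0.79 FPKM, while Krt16 was listed at 0. Lgals4, an intestinal galectin, was at 2071 ± 31.9 FPKM, the adhesion molecule Epcam at 733 ± 4.4, the proline-, histidine- and glycine-rich Phgr1 at 702 ± 41.3, the tetraspanin Tspan8 at 293 ± 7.5, villin (Vil1) of the microvillus core at 268 ± 1.7 and E-cadherin (Cdh1) at 222 ± 2.4 FPKM. Epcam and Phgr1 overlapped in the 5 libraries.

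The claudins, which seal or open tight junctions to ions, were uneven. Cldn7 was highest at 469, 477, 501, 491 and 483 FPKM, followed by Cldn3 at 349 ± 11.4, the sodium-pore claudin Cldn15 at 144 ± 1.6, the leaky Cldn2 at 52.3 ± 1.9 and Cldn23 at 31.1 ± 0.87 FPKM, each above the next in all libraries. Of 22 claudins, 9 reached 1 FPKM in all libraries and 5 were listed at 0. Cldn8, known from tight distal colon, was at 6.21 ± 0.65 FPKM and the endothelial Cldn5 at 3.91 ± 0.66 FPKM.

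Of 22 genes of absorptive colonocytes, 21 were at 1 FPKM or more in all libraries. They held 3.18% ± 0.026 of the FPKM total with a median of 116 FPKM, against 2.07 FPKM over all genes. After Lypd8 came carbonic anhydrase Car1 (ENSMUSG00000027556), which turns carbon dioxide into bicarbonate and protons, at 3691, 3622, 3533, 3582 and 3560.0 FPKM. The peptide hormone guanylin (Guca2a), which drives chloride and water secretion, was at 1732, 1789.7, 1728, 1703 and 1742 FPKM. Muc3 of the glycocalyx at 495 ± 10.5 and the membrane-bound Car4 at 424 ± 7.5 FPKM completed the 5 highest. The lowest was the sodium channel subunit Scnn1g at 0.185 ± 0.056 FPKM.

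Guanylin and its close relative uroguanylin (Guca2b) were far apart. Guca2b was at 32.8, 35, 38.8, 33.8 and 28.7 FPKM, so the ratio of Guca2a to Guca2b was 51.9 ± 5.8, from 44.5 to 60.6 over the libraries. Their shared receptor, the guanylate cyclase Gucy2c, stood between them at 89.1 ± 2.0 FPKM.

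Genes of coupled salt uptake stood above 100 FPKM, while those of the sodium channel were uneven. The chloride-bicarbonate exchanger Slc26a3 was at 147, 135, 139, 136 and 139 FPKM and the sodium-proton exchanger Slc9a3, with which it takes up salt in tandem, at 107, 105, 103, 103 and 105 FPKM. Slc26a3 was higher in every library, 1.33 ± 0.032 times. Among the other exchangers of these families were the sulfate transporter Slc26a2 at 69.9 ± 1.5 FPKM and the apical Slc9a2 at 71 ± 1.5 FPKM, which overlapped. Slc9a8 was at 16.3 ± 0.37 FPKM. Slc26a11, Slc26a6 and Slc26a10 were at 1.47, 0.956 and 0.419 FPKM and Slc26a5, the motor protein of hair cells, at 0.

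The 3 subunits of the epithelial sodium channel differed by orders of magnitude. Scnn1a was at 43.3, 44, 45.7, 45.7 and 44.4 FPKM, Scnn1b at 3.46, 3.84, 3.12, 3.19 and 3.34 FPKM and Scnn1g at 0.158, 0.115, 0.168, 0.232 and 0.25 FPKM, with no overlap between neighbours. The regulators of the channel were well above its beta and gamma subunits. Hsd11b2, which shields the mineralocorticoid receptor from glucocorticoids, was at 108 ± 1.1 FPKM, the kinase Sgk1 at 47.2 ± 1.9, the ubiquitin ligase Nedd4l at 33.2 ± 1.3, Tsc22d3 at 31.2 ± 1.9 and the mineralocorticoid receptor Nr3c2 at 18.6 ± 0.91 FPKM.

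Of the beta subunits of the sodium pump that powers this uptake, Atp1b1 was far above the others at 407, 411, 403, 408 and 409.7 FPKM. Atp1b3 was at 31.3 ± 1.1 and Atp1b2 at 3.17 ± 0.42 FPKM, and the testis isoform Atp1a4 was at 0.0062 FPKM. Of 10 chloride and potassium channel genes, 9 reached 1 FPKM in all libraries. Kcne3, the beta subunit of the basolateral potassium channel, was highest at 96.5 ± 2.3 FPKM, then Clcn2 at 84.5 ± 1.7, the pore subunit Kcnq1 at 38.6 ± 1.1, Ano1 at 33.1 ± 1.8, Kcnn4 at 25.6 ± 1.4 and Kcnk5 at 22.3 ± 1.2 FPKM. Cftr, the apical chloride channel of crypts, was at 20.4 ± 0.40 FPKM, Kcnma1 at 4.99 ± 0.32, Best2 at 4.0 ± 0.30 and Kcne2 at 0.675 ± 0.18 FPKM.

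Water channels and carbonic anhydrases each had a colonic leader. Aqp8, the aquaporin of surface colonocytes, was at 257, 249, 253, 261 and 254 FPKM, followed by Aqp4 at 77.5 ± 1.6, the endothelial Aqp1 at 68.3 ± 1.9, Aqp11 at 7.2 ± 0.98 and Aqp12, known from pancreatic acinar cells, at 6.83 ± 0.51 FPKM. Aqp7 was at 0.605, Aqp3 at 0.14, Aqp9 at 0.115, Aqp5 at 0.0532 and Mip at 0.0132 FPKM, and Aqp2 and Aqp6 were listed at 0. Car1 held 80.4% of the summed level of 16 carbonic anhydrases and exceeded Car4 8.49 ± 0.18 times. The cytosolic Car2 at 285 ± 5.3 FPKM, Car3 at 73.6 ± 1.1 and Car9 at 32.2 ± 0.93 FPKM came next, and Car6 of saliva was listed at 0.

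Genes for taking up and burning short-chain fatty acids were prominent. Of 14 such genes, 12 were at 1 FPKM or more in all libraries. The short-chain acyl-CoA dehydrogenase Acads was at 167, 165, 179, 174 and 174 FPKM, Hadh at 148 ± 3.3 and the carnitine palmitoyltransferase Cpt1a at 74 ± 1.8 FPKM, each above the next in all libraries. The transporters Slc16a1 and Slc5a8 were at 49.1 ± 1.7 and 36.2 ± 0.60 FPKM. The fatty acid receptors were lower, with Ffar2 at 8.19 ± 0.85, Ffar3 at 0.965 ± 0.16 and Hcar2 at 0.563 ± 0.21 FPKM. Within the monocarboxylate transporters, Slc16a5 at 65.8 ± 2.5 FPKM exceeded Slc16a1 in all libraries, and Slc16a3, Slc16a9 and Slc16a7 were at 7.03, 5.02 and 3.4 FPKM.

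All 18 goblet cell genes were at 10 FPKM or more on average, with a median of 378 FPKM and 2.78% ± 0.020 of the FPKM total. Zg16 (ENSMUSG00000049350) was highest at 3044, 3198, 3188, 3174 and 3175 FPKM and overlapped with Clca1, a metalloprotease of the mucus layer, at 3163, 3095, 3038, 3102 and 3110.1 FPKM. Zg16 was lower in replicate 1 than in the other 4 libraries. Agr2, the disulfide isomerase that folds mucin, was at 1667 ± 18.5 FPKM, the gel-forming mucin Muc2 at 1434, 1368, 1407, 1400.2 and 1437 FPKM and the resistin-like Retnlb at 1339 ± 72.8 FPKM. Muc2 and Retnlb overlapped. The angiogenin Ang4 was at 1261 ± 13.9 FPKM, Fcgbp, which crosslinks the mucus gel, at 941 ± 10.8, the trefoil peptide Tff3 at 677 ± 34.9 and Spink4 at 611 ± 63 FPKM. Transcription factors of the lineage were lower, with Spdef at 129 ± 5.1 and Atoh1 at 39.4 ± 2.0 FPKM. The lowest of the 18 was Sytl2 at 24.6 ± 0.74 FPKM.

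The mucins expressed were those of the intestine. Muc2 and the transmembrane mucins Muc13 at 617 ± 8.0, Muc3 at 495 ± 10.5, Muc4 at 36.5 ± 0.90 and Muc1 at 5.0 ± 0.45 FPKM were the 5 of 11 that reached 1 FPKM in all libraries, each above the next. The gastric surface mucin Muc5ac and Muc15 were listed at 0 in all 5 libraries, the airway mucin Muc5b was at 0.0014 FPKM, the gastric gland mucin Muc6 at 0.195, Muc16 at 0.0634 and Muc20 at 0.411 FPKM. The trefoil peptides followed this in part, with Tff3 far above the gastric Tff2 at 78.5 ± 3.4 FPKM and Tff1 at 0.0714 FPKM. Unlike the gastric mucins, Tff2 was well above 1 FPKM.

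Several families of the mucosa, secreted or on the cell surface, were dominated by 1 member. Clca1 held 91.5% of the summed level of 7 calcium-activated chloride channel regulators. Clca3b was at 168 ± 1.6 FPKM, Clca4a at 115 ± 2.2, Clca4b at 3.75 ± 0.47 and Clca2 at 0.392 ± 0.15 FPKM, while Clca3a1 and Clca3a2, near-identical copies, were at 1.21 ± 0.21 and 1.11 ± 0.31 FPKM. Retnlb exceeded Retnla at 20.5 ± 2.2 FPKM 65.9 ± 7.8 times, and Retn and Retnlg were at 7.66 ± 1.2 and 2.75 ± 0.72 FPKM. Mptx1, a mucosal pentraxin that binds bacteria, was at 2339, 2369, 2325, 2334 and 2293 FPKM, while its neighbour Mptx2 was listed at 0, Apcs was at 0.0098 FPKM and Crp at 0.0056 FPKM. Ceacam1, an adhesion molecule of the brush border, was at 2256 ± 22.5 FPKM and held 94.1% of its family. The next members were Ceacam10 at 79.7 ± 1.9, Ceacam20 at 55.5 ± 1.9, Ceacam12 at 2.77 ± 0.33, Ceacam18 at 2.51 ± 0.36 and Ceacam2 at 1.58 ± 0.22 FPKM, with Ceacam16 and Ceacam19 at 0.0138 and 0.0124 FPKM.

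The Reg lectins were all present, and were less concentrated. Reg1 was at 224, 239, 231, 236 and 224 FPKM, the bactericidal Reg3b at 171, 182, 180.3, 183 and 172 FPKM and Reg4, a marker of deep crypt secretory cells, at 71.7 ± 2.3 FPKM, with no overlap between them. Reg3g stood at 57.3 ± 2.4 FPKM, and Reg3b exceeded it 3.11 ± 0.079 times. Reg2, known from pancreas, was at 23.4 ± 1.4 FPKM, Reg3d at 10.1 ± 0.37 and Reg3a at 1.99 ± 0.25 FPKM. Reg1 is also made by exocrine pancreas, so these libraries do not tell its source. Of the other deep crypt secretory markers, Cd24a was at 263 ± 3.7 FPKM, the receptor kinase Kit at 22.8 ± 0.70, and the Notch ligands Dll4 and Dll1 at 4.35 ± 0.38 and 3.09 ± 0.36 FPKM.

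Endocrine transcripts included hormones of distal gut. Of 25 enteroendocrine genes, 17 were at 1 FPKM or more in all libraries. Peptide YY (Pyy) was highest at 86.1, 88.8, 83.7, 84.5 and 81.6 FPKM, then the granins Chgb at 76.6 ± 1.6 and Chga at 71.5 ± 1.1, proglucagon (Gcg) at 63.2 ± 3.9 and somatostatin (Sst) at 61.9 ± 3.7 FPKM, the last pair overlapping. Insl5, a hormone of distal colon, was at 20.5 ± 1.5 FPKM, secretin (Sct) at 15.4 ± 2.9, the serotonin-synthesising Tph1 at 15.3 ± 1.6, cholecystokinin (Cck) at 5.9 ± 0.43 and ghrelin (Ghrl) at 0.399 ± 0.083 FPKM. Gip, the incretin of upper small intestine, was listed at 0 in all libraries. Transcription factors of the lineage were near or under 1 FPKM, with Neurog3 at 0.95 ± 0.32, Neurod1 at 0.848 ± 0.24 and Rfx6 at 0.163 ± 0.060 FPKM. Around serotonin, the degrading enzyme Maoa was at 175 ± 4.7 FPKM, Ddc at 15.8 ± 0.66, Maob at 8.49 ± 0.74 and the reuptake transporter Slc6a4 at 3.01 ± 0.20 FPKM. Of the peptides outside the hormone list, Vip was at 21.7 ± 1.2, Nmu at 5.25 ± 0.51, Calcb at 3.45 ± 0.88, Adm at 2.71 ± 0.14 and Calca at 0.115 FPKM, and the serotonin receptors Htr3a and Htr4 were at 3.54 ± 0.35 and 3.12 ± 0.27 FPKM.

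Tuft cell genes were low as a list. Of 15, 8 were at 1 FPKM or more in all libraries, near the share of 54.2% over all genes. Their median was 1.27 FPKM, against 2.07 FPKM over all genes. The kinase Dclk1 was at 5.55 ± 0.69 FPKM, Alox5ap at 5.46 ± 1.9, Ltc4s at 4.88 ± 0.86 and Avil at 4.87 ± 0.78 FPKM. The cation channel Trpm5 was at 4.33, 4.91, 4.23, 4.57 and 4.75 FPKM, the lineage factor Pou2f3 at 1.01 ± 0.13 FPKM and the cytokine Il25 lowest at 0.0846 ± 0.097 FPKM.

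Paneth cells belong to the small intestine, and their genes were mostly near 0. Only 3 of 14 reached 1 FPKM in all libraries: the lectin Itln1 at 68.4, 67.1, 67.6, 65.7 and 64.2 FPKM, Lyz1 at 5.41 ± 0.72 FPKM and Mmp7 at 1.92 ± 0.21 FPKM. The alpha-defensins, near-identical copies whose reads cannot be told apart with certainty, ranged from 0 for Defa26 to 0.529 ± 0.37 FPKM for Defa24. Enterocyte genes of the small intestine split. The sodium-glucose transporter Slc5a1 was at 44.8, 44.1, 44.2, 45.9 and 43.8 FPKM, intestinal alkaline phosphatase (Alpi) at 20.4 ± 1.2, the bile acid transporter Slc10a2 at 18.7 ± 0.48, Rbp2 at 11.7 ± 1.2 and Apob at 10.3 ± 0.32 FPKM. Lactase (Lct) was lowest at 0.0112 FPKM, with Slc2a2 at 0.0264, Apoa4 at 0.0282, Fabp1 at 0.38 ± 0.23 and sucrase-isomaltase (Sis) at 1.98 ± 0.22 FPKM. Gata4, which marks the jejunum, was at 1.03 ± 0.13 FPKM.

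Cycling genes were moderate, while crypt base genes were uneven, with Lgr5, Ascl2 and Olfm4 well below the median of their list. Of 16 crypt base genes, 14 were at 1 FPKM or more in all libraries with a median of 10.6 FPKM. Prom1 at 91.5 ± 2.0, the basolateral chloride importer Slc12a2 at 49.1 ± 0.90, Lrig1 at 26.4 ± 0.36, Rgmb at 25.3 ± 2.7 and Cdca7 at 22.9 ± 1.2 FPKM were highest. Lgr5, the R-spondin receptor that marks the stem cells, was at 1.54, 1.87, 1.9, 1.75 and 2.06 FPKM and Ascl2 at 3.88 ± 0.55 FPKM. Olfm4, a stem cell marker of small intestine, was at 0.060 ± 0.035 FPKM. All 18 cycling genes were at 10 FPKM or more on average, from Mcm4 at 10.7 ± 0.37 to Stmn1 at 101 ± 3.7 FPKM, with Pcna at 51.5 ± 1.7, Hmgb2 at 33.6 ± 2.4, Mcm6 at 32.7 ± 1.3, Mcm7 at 29.7 ± 2.3, Mki67 at 19.4 ± 0.54 and Top2a at 19.6 ± 0.33 FPKM.

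The ligands that shape the crypt were low in bulk RNA. Only 3 of 23 Wnt ligands and R-spondins reached 1 FPKM in all libraries: Wnt2b at 4.49, 4.65, 4.46, 4.22 and 4.12 FPKM, Wnt5a at 2.21 ± 0.12 and Wnt5b at 1.39 ± 0.28 FPKM. Rspo3 followed at 0.963 ± 0.23 and Wnt4 at 0.906 ± 0.12 FPKM, and Wnt3a, Wnt7a and Wnt8a were listed at 0. BMP ligands and antagonists were more even, with 12 of 14 at 1 FPKM or more. Bmp3 led at 8.94 ± 0.60 FPKM, and Bmp2 at 6.81 ± 0.48, Bmp4 at 6.66 ± 0.89 and the antagonist Grem1 at 6.09 ± 0.46 FPKM could not be ordered, as the libraries of each overlapped with those of the next. Nog was lowest at 0.549 ± 0.20 FPKM. Among ligands of the EGF receptor family, Areg at 11.5 ± 0.89 and Tgfa at 10.9 ± 0.48 FPKM overlapped at the top, followed by Hbegf at 5.61 ± 0.49, Btc at 1.93 ± 0.37, Egf at 1.82 ± 0.17 and Ereg at 1.26 ± 0.15 FPKM, with Epgn lowest at 0.0846 FPKM.

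Most transcription factors of intestinal identity were present. Of 25, 23 were at 1 FPKM or more in all libraries, with a median of 30.7 FPKM. Hnf4a, which drives enterocyte genes, was at 265, 260.4, 279, 263 and 269 FPKM, with Elf3 just below it in all libraries at 249 ± 3.9 FPKM. Its paralogue Hnf4g was at 8.83 ± 0.47 FPKM, lower by a ratio of 30.3 ± 1.6. The caudal factors Cdx1 and Cdx2 were at 169, 167, 188, 176 and 173 FPKM and 105, 107, 113, 107 and 111 FPKM, and Cdx1 was the higher in every library, 1.61 ± 0.051 times. Klf4, a factor of differentiated cells, was at 150.1 ± 4.5 FPKM. The small-intestinal Gata4 and Gata5 were lowest, at 1.03 ± 0.13 and 0.773 ± 0.12 FPKM.

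Hox genes record position along the body axis, and here their levels differed between the clusters. Of 39, 16 were at 1 FPKM or more in all libraries, below the background share, and 3 were listed at 0. The A and B clusters held 46.2 ± 0.62% and 49.6 ± 0.49% of the summed Hox level, the D cluster 3.63 ± 0.29% and the C cluster 0.505 ± 0.21%. Hoxb9 was highest at 23.6, 23.7, 23.3, 25.1 and 23.9 FPKM and Hoxa7 next at 18.1 ± 1.2 FPKM, without overlap. The most posterior group was represented by Hoxb13 at 14.7, 15, 16.8, 15.7 and 14.2 FPKM and Hoxa13 at 12.1, 11.9, 12.9, 13.5 and 12.6 FPKM, all libraries of the first above those of the second. Hoxd13 was at 0.166 ± 0.041 FPKM and Hoxc13 at 0. Hoxa10 at 12.8 ± 0.80 FPKM overlapped with Hoxa13. Within the D cluster, Hoxd8 at 2.44 ± 0.22 and Hoxd9 at 1.25 ± 0.29 FPKM were highest. Within the C cluster, Hoxc4 at 0.332 ± 0.23 FPKM was.

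**Figure D3:**
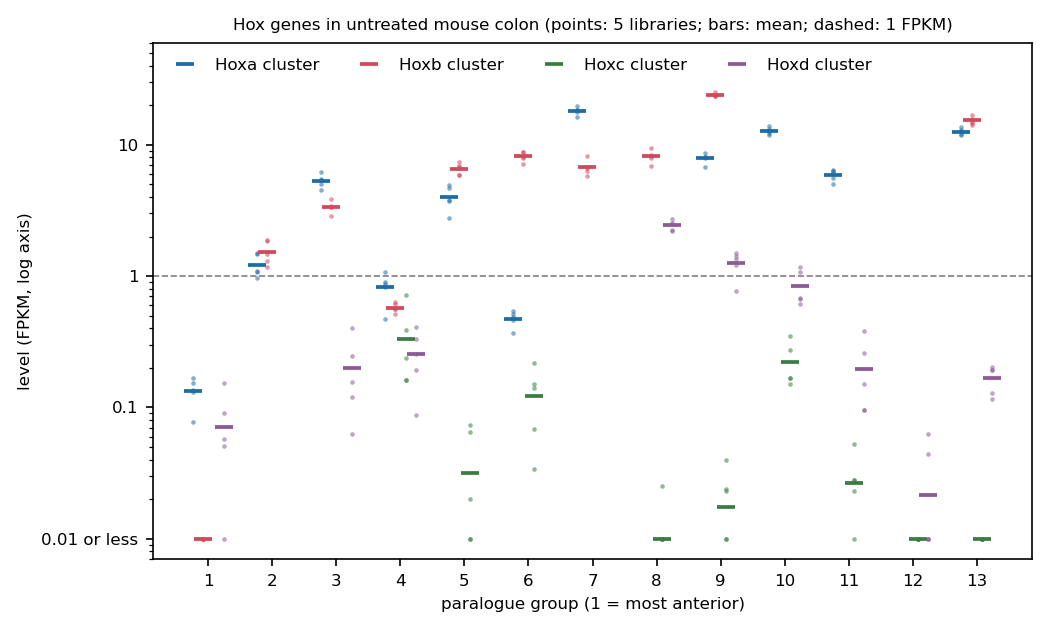
Levels of the Hox genes (vertical log axis, FPKM, values of 0.01 or less drawn at 0.01) by paralogue group from anterior to posterior, coloured by cluster. Points are the 5 untreated libraries, bars their means and the dashed line 1 FPKM; Hoxa and Hoxb genes lie above the line from group 5 on with the exception of Hoxa6, and each Hoxc gene lies below it.

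Nuclear receptors were led by the vitamin D receptor. Vdr was at 94.8, 92, 94.4, 94.4 and 92 FPKM, Ppard at 85.6 ± 3.8 and Pparg, both fatty acid sensors, at 53.3 ± 2.1, the oestrogen-related Esrra at 52.6 ± 3.7 and Nr1h2 at 47.6 ± 3.3 FPKM. The bile acid receptor Nr1h4 was at 33.2 ± 1.3 and the xenobiotic receptor Nr1i2 at 19.8 ± 0.56 FPKM, while the liver receptor Nr1i3 was at 0.267 ± 0.16 FPKM. The glucocorticoid receptor Nr3c1 was at 16.8 ± 3.0 FPKM, and the sex steroid receptors Esr1, Esr2 and Pgr were at 0.628, 0.139 and 0.0144 FPKM. In all, 25 of 37 were at 1 FPKM or more in all libraries.

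Plasma cell products were among the highest transcripts of the tissue. The constant region of IgA, Igha (ENSMUSG00000095079), was at 4919, 5022, 5018, 5056 and 5067 FPKM and the kappa light chain Igkc at 3092, 3270.3, 3148, 3160.5 and 3208 FPKM. Immunoglobulin constant regions held 1.77% ± 0.020 of the FPKM total. Igha made up 91.1 ± 0.11% of the heavy chain level, the IgG genes together 8.1 ± 0.11% and Ighm 0.667 ± 0.019%. Among IgG, Ighg2c was at 259 ± 4.9 FPKM, Ighg2b at 116 ± 3.0, Ighg1 at 61.1 ± 2.3 and Ighg3 at 9.9 ± 0.78 FPKM, each above the next. Ighm was at 36.7 ± 0.70, Ighd at 5.85 ± 0.47 and Ighe at 0.309 ± 0.10 FPKM. Igkc was 82.2 ± 0.74% of the light chains, with Iglc1 at 582 ± 35, Iglc2 at 64.1 ± 5.8 and Iglc3 at 43.3 ± 3.5 FPKM, copies that are similar in sequence.

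The machinery that moves IgA was high on the epithelial side. The receptor Pigr, which carries polymeric IgA across the epithelium, was at 973, 934, 951, 971 and 959 FPKM. The joining chain Jchain was at 499.7 ± 11.2 FPKM, exceeded 10.04 ± 0.30 times by Igha. Gut-homing molecules were low: the chemokines Ccl28 and Ccl25 at 12.3 ± 0.70 and 2.71 ± 0.46 FPKM, the integrins Itgb7 and Itga4 at 6.7 ± 0.41 and 2.2 ± 0.13, Madcam1 at 2.52 ± 0.48, Ccr10 at 1.68 ± 0.27 and Ccr9 at 0.293 ± 0.089 FPKM. All 10 plasma cell genes were at 1 FPKM or more in all libraries, but Txndc5 at 255 ± 3.4, Xbp1 at 172 ± 3.6 and Sdc1 at 109 ± 3.2 FPKM are also epithelial. Mzb1 was at 26.4 ± 3.1, Pou2af1 at 8.51 ± 0.40, Derl3 at 6.93 ± 0.97, Irf4 at 4.03 ± 0.21, Tnfrsf17 at 2.9 ± 0.23 and Prdm1 at 1.67 ± 0.15 FPKM.

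Other leukocytes left weaker traces. Of 12 B cell genes, 8 were at 1 FPKM or more in all libraries, with Cd79a at 17 ± 1.5, Cd79b at 9.0 ± 0.68, Cd37 at 7.86 ± 0.71, Cd22 at 2.26 ± 0.17, Cxcr5 at 1.67 ± 0.43, Fcer2a at 1.51 ± 0.29, Ms4a1 at 1.44 ± 0.32, Blk at 1.03 ± 0.19, Pax5 at 0.899 ± 0.15, Cr2 at 0.869 ± 0.25 and Bank1 at 0.846 ± 0.14 FPKM. Of 17 T cell genes, 12 reached that level, and the receptor chains Cd3g and Cd3e at 4.39 ± 0.51 and 4.36 ± 0.31 FPKM, with Cd4 at 4.12 ± 0.35 FPKM, overlapped. Thy1, shared with neurons and stroma, led at 13.8 ± 1.2 FPKM, and the regulatory T cell factor Foxp3 was lowest at 0.385 ± 0.021 FPKM. 

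Lymphocytes that sit in or near the epithelium carry granzymes and natural killer receptors. Among genes of cytotoxic and intraepithelial lymphocytes, Ccl5 was at 29.9 ± 1.8, Gzma at 9.29 ± 0.74, Cd7 at 7.24 ± 0.68, Gzmb at 6.59 ± 0.58 and Nkg7 at 5.99 ± 0.81 FPKM. Itgae, the integrin that tethers lymphocytes to E-cadherin, was at 2.81 ± 0.21 FPKM, Cd160 at 1.55 ± 0.40, Klrd1 at 0.936 ± 0.41, Xcl1 at 0.69 ± 0.31, Klrk1 at 0.661 ± 0.13, Prf1 at 0.371 ± 0.13 and Fasl at 0.214 ± 0.065 FPKM. In the innate lymphoid list, Il1rl1 was at 2.2 ± 0.22, Il7r at 0.986 ± 0.27, Tbx21 at 0.482, Gata3 at 0.353, Eomes at 0.212 and Ncr1 at 0.188 FPKM. The cytokines Il17a and Il22, which act on the epithelial barrier, were at 0.0536 and 0.010 FPKM.

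Of the myeloid genes, those of macrophages were highest. All 16 macrophage genes were at 1 FPKM or more, with Lyz2 at 119, 129.8, 128, 132 and 125 FPKM, the complement genes C1qa at 64 ± 1.9, C1qb at 54.1 ± 2.2 and C1qc at 47.3 ± 2.9, and Ly6c2 at 43.3 ± 1.2 FPKM. Csf1r was at 25.8 ± 2.1 FPKM and Ccr2, which marks incoming monocytes, lowest at 1.35 ± 0.21 FPKM. Dendritic cell genes reached 3.74 ± 0.33 FPKM for Itgax and 1.48 ± 0.22 FPKM for Ccr7, and Flt3, Batf3, Zbtb46, Cd209a, Clec9a, Xcr1 and Siglech lay between 0.291 and 0.859 FPKM. Neutrophil genes were nearly absent, with S100a8 listed at 0 in all libraries, S100a9 at 0.154, Cxcr2 at 0.0858, Mpo at 0.022 and Elane at 0.0096 FPKM. Ly6g was the exception at 9.47 ± 1.3 FPKM, with Retnlg at 2.75 ± 0.72 and Csf3r at 0.626 ± 0.19 FPKM. Eosinophil genes lay at or under 1.38 ± 0.56 FPKM, the level of Prg2, with Siglecf at 1.27 ± 0.14, Ccr3 at 0.324, Il5ra at 0.224 and Epx at 0.0506 FPKM. Mast cell proteases were led by the mucosal Mcpt1 at 4.46 ± 0.72 and Mcpt2 at 1.76 ± 0.32 FPKM, above Tpsb2 at 0.721, Hdc at 0.272, Mcpt4 at 0.178, Cma1 at 0.124, Fcer1a at 0.122, Cpa3 at 0.116 and Ms4a2 at 0.0316 FPKM, with Tpsab1 at 0.

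**Figure D4:**
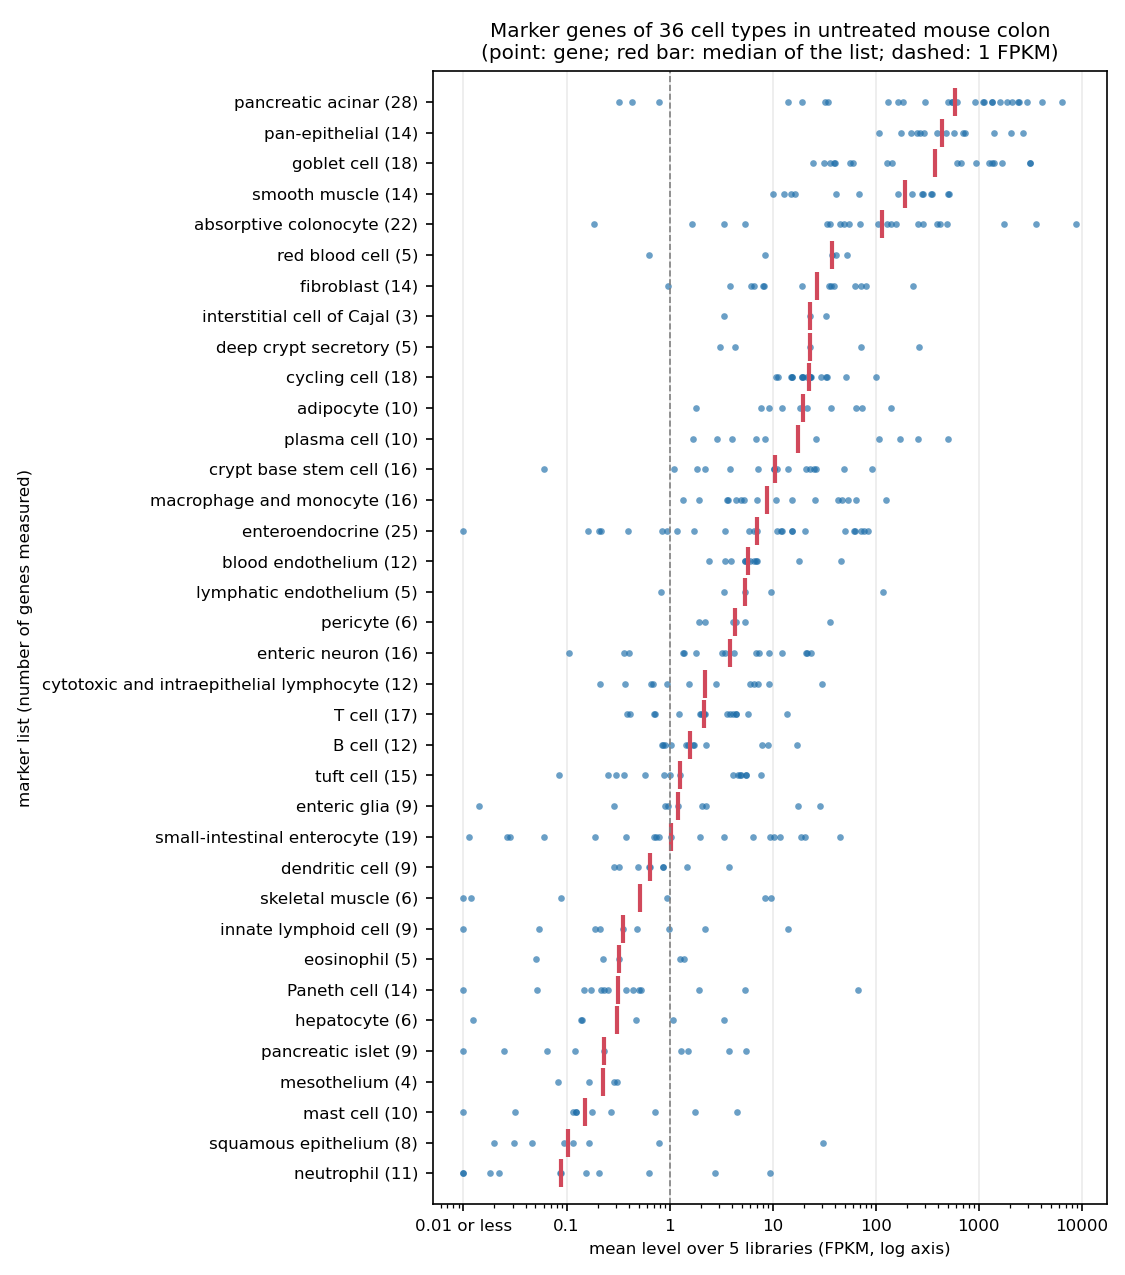
Mean level over the 5 untreated libraries (horizontal log axis, FPKM, values of 0.01 or less drawn at 0.01) of each marker gene of 36 cell type lists, ordered by the median of the list (red bar), with the number of genes measured in brackets and 1 FPKM dashed. Pancreatic acinar, epithelial, goblet, smooth muscle and absorptive lists have medians over 100 FPKM, and neutrophil, squamous, mast cell and mesothelial lists lie at the bottom.

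Antigen presentation was high for both classes. B2m, the light chain of class I, was at 1386, 1358, 1346, 1368 and 1355 FPKM, with H2-K1 at 1056 ± 19.1, H2-D1 at 740.0 ± 20.6, H2-T23 at 272 ± 3.4 and Tapbp at 128 ± 1.1 FPKM. Of the genes for class II, the invariant chain Cd74 was at 1035, 1040.2, 1067, 1044 and 1046 FPKM, H2-Aa at 418 ± 6.7, H2-Ab1 at 325 ± 6.2, H2-Eb1 at 173 ± 3.7 and Ctss at 158 ± 4.5 FPKM. The peptide exchange chains H2-DMb1, H2-DMa and H2-DMb2 were at 38.7 ± 2.4, 36 ± 3.3 and 5.92 ± 0.46 FPKM, their master regulator Ciita at 5.77 ± 0.28 FPKM, and H2-Oa and H2-Ob of B cells at 2.65 ± 0.48 and 1.92 ± 0.28 FPKM. Cd74 exceeded the B cell gene Cd79a 61.8 ± 5.2 times. Several H2-Q genes are near-identical, so their levels are uncertain.

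Interferon-stimulated genes, which respond to viral and microbial nucleic acids, were all present without any treatment. All 18 measured were at 1 FPKM or more in all libraries, with a median of 36.5 FPKM. Irf7, the amplifier of the response, was at 244, 248, 264, 259 and 247 FPKM, Oasl2 at 152 ± 6.1, Oas1a at 114 ± 3.0 and Isg15 at 84.6 ± 1.8 FPKM, each above the next. The lowest was Mx1 at 4.77 ± 0.27 FPKM. Guanylate-binding proteins, induced by interferon gamma, were lower, with Gbp2 at 20.1 ± 0.59, Gbp3 at 10.9 ± 0.67, Gbp6 at 7.66 ± 0.52, Gbp7 at 4.23 ± 0.34 and Gbp4 at 2.02 ± 0.39 FPKM. Gbp9, Gbp5, Gbp8, Gbp2b and Gbp10 were at 1.97, 1.88, 0.855, 0.606 and 0.123 FPKM.

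The promoters of both families were searched for a known motif. The repeat GAAANNGAAA is a form of the element to which interferon regulatory factors are known to bind, and it was looked for on both strands in RefSeq promoters of build GRCm38.p6, from 250 bases before to 50 after the start of a gene. It occurred for 3.99% of 27025 genes. Of the 18 interferon-stimulated genes, 13 had a promoter in the table and 8 of them held the repeat. Of the 10 guanylate-binding genes, 5 had a promoter and all 5 held it. 5 of the 13 genes that held it are shown, taken from the top to the bottom of the range of levels, with the repeat or its reverse complement in capitals and 10 bases on either side, 5′ to 3′ on the strand of the gene. The windows lie at chr5:120907526-120907555 on the minus strand (Oas1a), chr4:156200877-156200906 on the minus strand (Isg15), chr12:26456553-26456582 on the minus strand (Rsad2), chr3:142620594-142620623 on the plus strand (Gbp2) and chr3:142594700-142594729 on the plus strand (Gbp2b).
Oas1a: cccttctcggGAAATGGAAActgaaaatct
Isg15: tatgccgtagGAAAAGGAAAccgaaacaga
Rsad2: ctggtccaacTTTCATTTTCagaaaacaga
Gbp2: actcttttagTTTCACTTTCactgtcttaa
Gbp2b: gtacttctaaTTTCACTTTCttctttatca
The capitals begin 20, 78, 120, 59 and 137 bases before the start, in that order. Levels of these genes ran from 114 FPKM for Oas1a and 84.6 for Isg15 through 20.1 for Gbp2 and 10.4 ± 0.48 for Rsad2 to 0.606 FPKM for Gbp2b. The repeat was thus found beside levels that differed more than 100 times. A match is a description of the letters and not a bound site.

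Few interleukins were present, while some chemokines were well above 1 FPKM. Of 26 interleukins, 6 were at 1 FPKM or more in all libraries, well under the background share. Il18, which epithelium makes constitutively, was highest at 12.7, 13.5, 12.7, 12.5 and 12.6 FPKM, then Il15 at 4.3 ± 0.52, Il16 at 3.5 ± 0.30, Il34 at 2.86 ± 0.23 and the alarmin Il33 at 2.19 ± 0.29 FPKM. Il1b was at 1.26 ± 0.30, Il10 at 0.185 and Il6 at 0.012 FPKM, and Il3, Il9, Il11 and Il27 were listed at 0. Of the CC chemokines 12 of 20 were at that level, and Ccl6 at 286, 289, 282, 287 and 289 FPKM held 55.4% of the summed level, followed by the lymphatic Ccl21a at 117 ± 4.8, Ccl8 at 32.2 ± 0.98, Ccl5 at 29.9 ± 1.8 and Ccl28 at 12.3 ± 0.70 FPKM. Among CXC chemokines, 7 of 14 at that level, the stromal Cxcl12 was highest at 30.6 ± 0.79 FPKM, then Cxcl16 at 11 ± 0.94, Cxcl14 at 9.72 ± 0.52, Pf4 at 9.7 ± 1.5 and Cxcl10 at 7.51 ± 0.74 FPKM. The neutrophil attractants Cxcl1, Cxcl5 and Cxcl2 were at 0.18, 0.111 and 0.0378 FPKM and Cxcl3 at 0. Toll-like receptors were led by Tlr1 at 18.9 ± 0.71, Tlr3 at 12.9 ± 0.83 and Tlr2 at 9.32 ± 0.30 FPKM, with Tlr4 at 4.64 ± 0.28, Tlr5 at 2.78 ± 0.24, Tlr12 at 2.03 ± 0.18, Tlr9 at 1.4 ± 0.23, Tlr13 at 1.05 ± 0.11, Tlr7 at 0.737, Tlr6 at 0.613, Tlr8 at 0.494 and Tlr11 at 0.284 FPKM.

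Muscle and nerve were present. Smooth muscle genes, all 14 at 10 FPKM or more on average, held 0.533% ± 0.0076 of the FPKM total. The enteric actin Actg2 at 507, 506, 519.9, 515 and 526 FPKM and Acta2 at 502, 482, 503, 491 and 507 FPKM overlapped at the top, followed by Tagln at 349 ± 6.3, Myl9 at 344 ± 9.9 and Cnn1 at 284 ± 4.5 FPKM. Lmod1 was lowest at 10.2 ± 0.30 FPKM. Markers of the pacemaker cells of Cajal, Ano1, Kit and Etv1 at 3.4 ± 0.41 FPKM, were all above 1, though the first 2 are shared with other cells. Of 16 enteric neuron genes, 13 were at 1 FPKM or more in all libraries, with Uchl1 at 23.8 ± 1.5, the relaxing peptide Vip at 21.7 ± 1.2, galanin (Gal) at 21.1 ± 1.2, Prph at 12.3 ± 0.88 and Tubb3 at 9.28 ± 0.17 FPKM. Nos1 was at 3.47 ± 0.26, the acetylcholine-making Chat at 0.36 ± 0.16 and Th lowest at 0.105 ± 0.022 FPKM. Glial genes included L1cam at 28.8 ± 0.27, Entpd2 at 17.5 ± 1.0, Gfap at 2.23 ± 0.29, Sox10 at 2.06 ± 0.22, Cdh19 at 0.975 ± 0.27, S100b at 0.908 ± 0.19 and Fabp7 at 0.0142 FPKM. L1cam and Entpd2 are not confined to glia.

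Stromal and vascular genes formed a further layer. Of 14 fibroblast genes 13 were at 1 FPKM or more in all libraries. Gsn, also in muscle, was at 229.7 ± 4.6 FPKM, Sparc at 80.6 ± 3.9, Col3a1 at 71.3 ± 2.6, decorin (Dcn) at 63.4 ± 2.1 and Dpt at 39.7 ± 0.53 FPKM, and Pi16 was lowest at 0.965 ± 0.29 FPKM. Of 44 collagens, 21 reached that level, led by Col3a1, Col6a2 at 41.6 ± 1.5, Col6a1 at 39.97 ± 0.49, the basement membrane chain Col4a1 at 36.3 ± 1.5 and Col1a2 at 35 ± 1.1 FPKM. The 2 chains of type I collagen, which assemble with more of the first, were unequal the other way, Col1a2 exceeding Col1a1 at 19.3 ± 0.46 FPKM 1.82 ± 0.042 times. The cartilage collagen Col2a1 was listed at 0. Matrix metalloproteinases were led by the membrane-bound Mmp15 at 41.4 ± 2.0 and Mmp14 at 30.3 ± 1.3, then Mmp2 at 20.6 ± 0.84, Mmp28 at 10.2 ± 0.70 and Mmp23 at 2.45 ± 0.42 FPKM, and the inflammatory Mmp8 was at 0.0272 FPKM.

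Endothelial genes were led by Plvap of fenestrated vessels at 46.4 ± 2.2 FPKM and Pecam1 at 18 ± 0.38, with Cdh5 at 7.01 ± 0.45, Egfl7 at 6.86 ± 0.68, Esam at 6.56 ± 0.50, Vwf at 5.98 ± 0.15, Tie1 at 5.58 ± 0.56, Emcn at 5.42 ± 1.0, Kdr at 5.37 ± 0.39, Cldn5 at 3.91, Flt1 at 3.48 ± 0.33 and Tek at 2.43 ± 0.19 FPKM. For lymphatic vessels, Ccl21a stood far above Lyve1 at 9.71 ± 0.52, Flt4 at 5.34 ± 0.35, Pdpn at 3.39 ± 0.62 and Prox1 at 0.834 ± 0.15 FPKM. Of the pericyte genes, Rgs5 was at 36 ± 0.63, Pdgfrb at 5.34 ± 0.14, Kcnj8 at 4.39 ± 0.22, Abcc9 at 4.15 ± 0.29, Cspg4 at 2.19 ± 0.089 and Notch3 at 1.94 ± 0.15 FPKM. Mesothelial genes, which line the outer surface, lay under 1 FPKM: Msln at 0.308, Upk3b at 0.286, Wt1 at 0.164 and Lrrn4 at 0.0818 FPKM.

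Fat and blood were detectable, liver and skeletal muscle barely. All 10 adipocyte genes were at 1 FPKM or more in all libraries: Cfd at 132, 145, 147, 142 and 136 FPKM, Car3 at 73.6 ± 1.1, Fabp4 at 64 ± 4.8, Cidec at 36.7 ± 2.2, adiponectin (Adipoq) at 21.4 ± 1.8, Lpl at 18.4 ± 0.86, Plin1 at 12.3 ± 1.4, Plin4 at 9.12 ± 0.36, Retn at 7.66 ± 1.2 and leptin (Lep) at 1.8 ± 0.46 FPKM. Haemoglobin genes, near-identical in pairs, were at 52.1 ± 2.8 FPKM for Hba-a2, 41.5 ± 2.4 for Hbb-bs, 37.7 ± 3.9 for Hba-a1 and 8.44 ± 1.7 for Hbb-bt, with Alas2 at 0.628 ± 0.19 FPKM. Liver genes ranged from Fgb at 0.0124 to Ttr at 3.4 ± 0.22 FPKM, with Alb at 1.07 ± 1.6, Apoa2 at 0.472, Ahsg at 0.142 and Serpina1a at 0.139 FPKM. Alb stood at 4.0, 0.254, 0.493, 0.236 and 0.367 FPKM so replicate 1 stood above the other 4 and the SD exceeded the mean. Of skeletal muscle, Acta1 was at 9.7 ± 0.92, Ckm at 8.51 ± 0.68, Mylpf at 0.953 ± 0.16, Tnnt3 at 0.0882 and Myh1 at 0.0118 FPKM, and Myh4 was at 0.

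Among the 87 lists, which hold none for cytosolic ribosomal proteins, acinar genes of the exocrine pancreas had the largest share after the mitochondrially encoded genes. The 28 acinar genes measured held 6.19% ± 0.047 of the FPKM total, with a median of 582 FPKM, and 25 of 28 were at 1 FPKM or more in all libraries. Chymotrypsinogen Ctrb1 (ENSMUSG00000031957) was at 6345, 6457, 6618, 6398 and 6483 FPKM, elastase Cela2a at 4009, 4056, 4256, 4118 and 4117 FPKM and the trypsinogen Try4 at 2917, 2908, 2932, 2926 and 2936 FPKM. The largest of their CVs was 2.26%, for Cela2a. Prss2 at 2437 ± 26.2 FPKM overlapped with pancreatic lipase (Pnlip) at 2399 ± 26.4 FPKM. Cela1 was at 1868 ± 21.5, carboxypeptidase Cpa1 at 1594 ± 21.7, Cela3b at 1343 ± 35.1, colipase (Clps) at 1126 ± 23.7 and the granule membrane protein Gp2 at 130.2 ± 1.2 FPKM. The amylase Amy2a1 was at 2215 ± 90.5 FPKM and Amy2a5 at 501 ± 70.3 FPKM. Amy2a2, Amy2a3 and Amy2a4 carried the same value to the last digit in each library, 528 ± 25.7 FPKM, so these copies were not separated. Of the amylases, only Amy2a5 is on the acinar list and counted in its share.

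Regulators of the acinar lineage stood far below its enzymes. No pancreas sample was examined, so whether this differs from pancreas was not tested. Ptf1a was at 0.471, 0.419, 0.369, 0.496 and 0.425 FPKM and Rbpjl at 0.867, 0.748, 0.771, 0.87 and 0.674 FPKM, both under 1 in all libraries. Ctrb1 exceeded Ptf1a 12899 to 17935 times. Islet genes were low, with insulin Ins2 at 5.56 ± 0.97, Ppy at 3.73 ± 1.0, Iapp at 1.52 ± 0.51, Ins1 at 1.28 ± 0.41, Pdx1 at 0.232, Mafa at 0.121, Ucn3 at 0.0644 and G6pc2 at 0.0246 FPKM, and Nkx6-1 listed at 0. The source of the pancreatic transcripts was not tested. The spread between the 5 libraries differed among them, with CVs of 1.6% for Ctrb1, 2.26% for Cela2a, 1.07% for Prss2, 4.09% for Amy2a1 and 14% for Amy2a5.

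Promoters of acinar genes were searched for 1 known motif. The letters TATAAA, a form of the TATA box, were searched on the strand of the gene from 50 to 10 bases before the start in the same RefSeq table. They occurred for 2.89% of all genes of the RefSeq table and for 3.65% of the genes measured here that had a promoter. Among acinar genes with a promoter they occurred for 8 of 23, and among the 100 highest genes for 9 of 65. These sets overlap, as Try4, Prss2 and Pnlip are in both. The windows of 4 acinar genes are shown because their levels run from the top of the transcriptome to below 1 FPKM, with the match in capitals. They lie at chr6:41302231-41302256 on the plus strand (Try4), chr6:41521750-41521775 on the plus strand (Prss2), chr6:41458889-41458914 on the plus strand (Prss1) and chr19:58670325-58670350 on the plus strand (Pnlip).
Try4: tgaactggggTATAAAggcaggcttt
Prss2: tttagggaacTATAAAgacaggcact
Prss1: tgaattggggTATAAAggcaggcttc
Pnlip: aacactcaccTATAAAagggcatatc
The capitals begin 31, 16, 31 and 30 bases before the start. Try4 was at 2924, Prss2 at 2437, Prss1 at 0.323 ± 0.28 and Pnlip at 2399 FPKM. Other trypsinogens were Try5 at 2104 ± 33.2, Prss3 at 32.3 ± 2.8 and Try10 at 14.1 ± 1.4 FPKM. These genes are close copies, so the level of each is uncertain. The same letters were found for 5 of 8 Paneth cell genes and 4 of 7 Reg lectins with a promoter, the highest shares among the lists. Lists of other kinds held them too, with 3 of 7 mast cell genes, 7 of 19 interleukins and 4 of 11 CXC chemokines. Of the goblet cell genes, 0 of 8 did.

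The 13 mitochondrially encoded genes, which carry subunits of the respiratory chain, held 8.21% ± 0.089 of the FPKM total, the largest share among the 87 lists. mt-Co1 (ENSMUSG00000064351) was at 12252, 12014, 12078, 12155 and 12137 FPKM, mt-Co2 at 6865 ± 56.1, mt-Co3 at 5395 ± 80.8, mt-Atp6 at 5315 ± 134 and mt-Nd1 at 3753 ± 18.8 FPKM, of which mt-Co3 and mt-Atp6 overlapped. mt-Nd4l was lowest at 574 ± 72.9 FPKM. mt-Atp8, which overlaps mt-Atp6 on the genome, stood at 618, 590.3, 599, 977 and 714 FPKM and was high in replicate 4. Glycolytic enzymes held 0.989% ± 0.012, with Gapdh at 1438, 1435, 1479.5, 1475 and 1479 FPKM, Aldoa at 819 ± 9.2, Ldha at 738 ± 9.9, Pkm at 424 ± 5.3 and Tpi1 at 408 ± 6.0 FPKM, and the leukocyte hexokinase Hk3 lowest at 0.776 ± 0.25 FPKM. Ferritin chains Fth1 and Ftl1 were at 1829 ± 27.8 and 1434 ± 21.9 FPKM, the iron exporter Slc40a1 at 32 ± 1.3, the importer Slc11a2 at 13.8 ± 1.2 and the duodenal reductase Cybrd1 at 0.70 ± 0.086 FPKM.

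Glutathione transferases and UDP-glucuronosyltransferases, which conjugate foreign compounds, differed in how many members were present. Of 24 glutathione transferases 21 were at 1 FPKM or more in all libraries, led by Gstp1 at 405 ± 8.7, Mgst3 at 357 ± 7.7, Gsto1 at 339 ± 9.8, Gstm1 at 246 ± 2.2 and Gstp2 at 106 ± 5.1 FPKM. Gstt4 was listed at 0. The UDP-glucuronosyltransferases were selective, with 6 of 22 at that level: Ugt2b34 at 129.9 ± 1.9, Ugt1a7c at 100.2 ± 0.90, Ugt1a6a at 91.7 ± 2.5, Ugt1a1 at 79.9 ± 2.3 and Ugt2b5 at 11.9 ± 0.71 FPKM led. Ugt1a genes share their last exons, so reads there cannot be assigned to 1 of them. Metallothioneins Mt1, Mt2, Mt3 and Mt4 were at 164 ± 4.6, 70.8 ± 5.1, 10.3 ± 1.6 and 0.166 FPKM. Cathepsins were led by Ctsd at 214 ± 3.1, Ctss, Ctsb at 129.8 ± 1.4, Ctsz at 89.2 ± 1.7 and Ctsa at 88 ± 3.7 FPKM, with the neutrophil Ctsg at 0.023 FPKM.

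Clock genes cycle over the day, and the hour of collection is not given in the sources used here. Of 17 clock genes, 16 were at 1 FPKM or more in all libraries. The output gene Dbp was at 41.5, 39.8, 46.4, 42.6 and 40.2 FPKM and Arntl, the positive limb, at 3.8, 4.27, 4.04, 4.15 and 4.61 FPKM, a ratio of 10.1 ± 1.1. Bhlhe40 at 46.1 ± 1.2 and Nr1d1 at 45.1 ± 0.54 FPKM were highest and overlapped, with Tef at 30.8 ± 1.4 and Per1 at 14.6 ± 1.7 FPKM. Among immediate early genes Jund led at 205 ± 11.7 FPKM, then Junb at 59.1 ± 3.0, Ier2 at 40.7 ± 1.1, Fos at 40 ± 0.77 and Zfp36 at 29.8 ± 0.97 FPKM, and Egr3 was lowest at 0.347 ± 0.075 FPKM. Of the chaperones, Hspa8 was at 515 ± 9.7, Hsp90ab1 at 409 ± 4.0, Hspa5 of the endoplasmic reticulum at 153 ± 5.1, Hsp90b1 at 141 ± 3.6 and Hspa9 at 106 ± 1.5 FPKM, and the heat-inducible Hspa1a lowest at 6.13 ± 0.64 FPKM. Y-linked genes were present in all 5 libraries, Eif2s3y at 13.8, 15.6, 13.7, 16 and 14, Ddx3y at 5.84 ± 0.59, Kdm5d at 4.25 ± 0.18 and Uty at 3.88 ± 0.56 FPKM. Their X-linked partners were higher, Eif2s3x at 30.7 ± 2.2, Ddx3x at 60.7 ± 1.3, Kdm5c at 27.3 ± 0.90 and Kdm6a at 6.14 ± 0.79 FPKM.

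Genes often used as references spanned more than 2 orders of magnitude. Eef1a1 was at 2940.2, 2942, 2842, 2894 and 2896 FPKM, the cytoplasmic actin Actg1 at 1768 ± 18.5, Gapdh at 1461 ± 22.8, B2m at 1363 ± 15.4 and Rplp0 at 1234 ± 9.3 FPKM. The TATA-binding protein Tbp was lowest at 8.27 ± 0.92 FPKM, exceeded by Gapdh 178 ± 16.7 times.

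Of the 1113 genes on all lists, 67.5% were at 1 FPKM or more in all 5 libraries, against 54.2% of all genes. Across the lists, 17 of 49 gene families or sets with at least 4 members had over 50% of their summed level in 1 gene. The most concentrated were the mucosal pentraxins, resistin-like peptides, Ceacam and Clca genes. The least were nuclear receptors (13.9% in Vdr), the BMP list (15.5% in Bmp3) and Hox genes (16% in Hoxb9). Of 1108 pairs of neighbours in the order of levels within a list, 564 (50.9%) did not overlap in the 5 libraries.

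**Figure D5:**
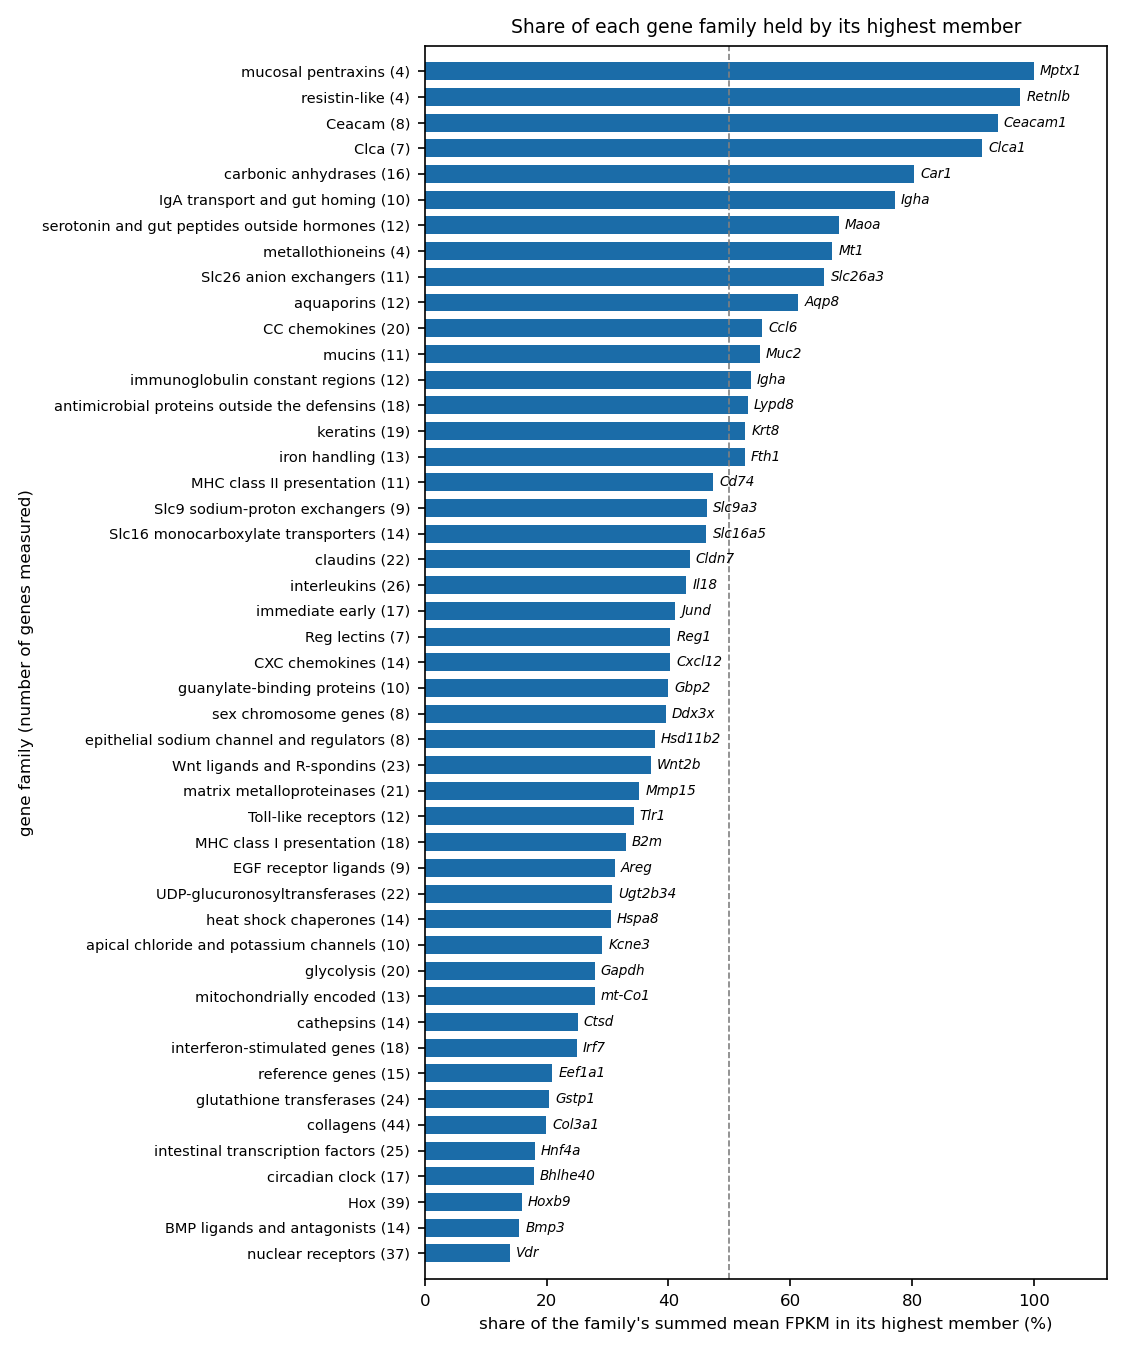
Share of a gene family's or set's summed mean FPKM that its highest member, named beside the bar, holds in the 5 untreated libraries (horizontal axis, %), with the number of genes measured in brackets and 50% dashed. Bars run from 13.9% for the nuclear receptors to 100% for the mucosal pentraxins, and 16 of the 47 drawn pass the dashed line.

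Genes of at least 10 FPKM were ranked by their CV over the libraries. Of 6189 genes of 10 FPKM or more on average, Gpr35, a receptor of the gut epithelium and leukocytes, had the largest CV at 62%. It stood at 6.82, 27.2, 7.65, 10.2 and 20.3 FPKM, high in replicates 2 and 5 and low in the others. Gm45837 followed with a CV of 34.3%, at 17.3, 6.63, 10.6, 10.2 and 11.6 FPKM. Pum3, an RNA-binding protein of the nucleolus, had a CV of 33.6% at 12.2, 26.5, 23, 14.7 and 15 FPKM and was high in replicates 2 and 3. Stt3a, a catalytic subunit of the oligosaccharyltransferase, was at 72.6, 75.3, 49.3, 73.6 and 38.7 FPKM, low in replicates 3 and 5. The others of the 15 with the largest CV, from 23% to 27.9%, were Ppp6r2, the histone genes H2ac18 and H2ac19, Emc8, Creg1, Rac2, Gm20390, Wdr75, Imp4, mt-Atp8 and Ndufb1. H2ac18 and H2ac19 are near-identical, and where the first was lowest, in replicate 5 at 14.9 FPKM, the second was highest at 37.1 FPKM. At the other end were Rasa3 at 13.3, 13.3, 13.2, 13.3 and 13.3 FPKM (CV 0.216%), Cdk5rap3, Rpl7a, Try4 and Rpn2, at 0.269%, 0.385%, 0.393% and 0.401%.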

How the data were processed

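Total RNA was enriched for polyadenylated RNA with oligo(dT) beads, and the NEBNext Ultra kit was used for the libraries, per the labels' protocols. The authors deposited FPKM values per gene. Per the submitters' processing notes, RSEM, StringTie 1.3.1, HISAT2, fastp 0.18.0 and Bowtie2 2.2.8 were used, in roles the notes do not give here. The genome build is not given in the sources used here. The 5 Control columns were read with pandas 2.3.3 and numpy 2.4.6, and plots were drawn with matplotlib 3.10.9. Where a symbol recurred, on 51 lines, the line with the higher mean was used. Of 1121 listed symbols, 8 had no match. Members and lists were chosen with earlier results of these data known. Named genes were the 25 highest, the 5 highest and the lowest of each list, all of a list of up to 12, and the 15 most and 5 least variable of at least 10 FPKM. Others of a list were named for their known role after their values were seen, and some members are not reported here. Depth was worked back from low values of genes with 1 annotated transcript in GENCODE M21, of which 90.1% of 2046 lay within 0.1 of a whole fragment, against 20% by chance. The method was checked on simulated data with independent fragments. No test was run. Alternatives were other levels of presence, TPM, other totals, fragments in place of FPKM, and leaving out each replicate.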

Additional observations from a re-analysis of the deposited data

Results flagged for a closer look

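In a group of 5 libraries, a value was picked out where the gap between the highest or lowest library and its nearest neighbour exceeded 0.71 of the whole range (Dixon's 95% critical value). This held for 54 of 715 levels and list shares examined (7.55%). For 12 of them, above 0 in a single library, the gap equals the whole range by construction, and the rate that chance gives for measured values, about 1 in 20, does not apply. Replicate 1 was the library that stood out in 18 of the 54, replicate 2 in 15, replicate 4 in 9, replicate 5 in 7 and replicate 3 in 5.

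Among genes over 100 FPKM, Mgst3, a microsomal glutathione transferase, was lowest in replicate 1 at 344 FPKM, Pnlip, pancreatic lipase, was highest in replicate 2 at 2444 FPKM, Spink4, a goblet cell protease inhibitor, was highest in replicate 2 at 722 FPKM and Stmn1, a gene of cycling cells, was highest in replicate 2 at 107 FPKM. Likewise Tagln, a smooth muscle protein, was highest in replicate 5 at 359.8 FPKM, Tapbp, the class I loading factor, was highest in replicate 3 at 130.2 FPKM, Zg16, the goblet cell lectin, was lowest in replicate 1 at 3044 FPKM and mt-Co2, a subunit of cytochrome oxidase, was highest in replicate 2 at 6962 FPKM. For Zg16 the other 4 libraries lay at 3174 to 3198 FPKM, and for Spink4 at 568 to 599 FPKM.

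Replicate 1 held the highest level of Ahsg at 0.383, Alb at 4.0, Lct at 0.038, Myh1 at 0.032 and Nr3c1 at 22.1 FPKM. For replicate 1 the same held of Prox1 at 1.09 and Slc26a6 at 1.21 FPKM. The highest library was replicate 2 for Ano1 at 36.2, Ccl5 at 33.1, Il18 at 13.5, Mpo at 0.090 and Ndufb1 at 26.3 FPKM. For replicate 2 the same held of Sis at 2.37 and Wnt5a at 2.41 FPKM. Replicate 3 was highest for Cd22 at 2.54 and Entpd2 at 19.2 FPKM. Highest in replicate 4 were Aqp3 at 0.333, Dcn at 67.1, Epgn at 0.332, Il33 at 2.7 and Il7r at 1.45 FPKM. Replicate 5 stood above the others for Gzmb at 7.62, H2-Ob at 2.41, Il1rl1 at 2.58, Ins1 at 2.01 and Prss1 at 0.814 FPKM. A lowest library stood apart for Car3 (replicate 2, 71.7), Egr3 (replicate 4, 0.217) and Muc6 (replicate 4, 0.147) FPKM. For Alb the other libraries lay at 0.236 to 0.493 FPKM. Among other genes made by liver, Ahsg, Fgb, Apcs and Crp were highest in replicate 1, and Serpina1a and Apoa2 in replicate 5, at 0.243 and 0.982 FPKM. Of these, Fgb, Apcs and Crp were listed at 0 in the other libraries. Ttr, the highest of the liver list, was at 3.67 FPKM in replicate 1 and at 3.193 to 3.568 FPKM in the others. Nr3c1 lay at 15.1 to 15.7 FPKM in the other 4.

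Some genes were above 0 in a single library and listed at 0 in the other 4. In replicate 1 these were Apcs at 0.049, Crp at 0.028, Elane at 0.048, Fgb at 0.062 and Mip at 0.066 FPKM. In the other libraries they were Atp1a4 at 0.031 (replicate 4), Bpi at 0.058 (replicate 3), Ctsg at 0.115 (replicate 2), Fabp7 at 0.071 (replicate 2), Il22 at 0.050 (replicate 3), Il6 at 0.060 (replicate 2) and Muc5b at 0.0070 (replicate 4) FPKM.

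Of the list shares of the FPKM total, those of EGF receptor ligands at 0.00671%, adipocyte at 0.0707%, glutathione transferases at 0.368% and red blood cell at 0.0251% were lowest in replicate 1, and that of dendritic cell genes at 0.00207% was highest in replicate 5.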

How the results depend on the processing

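The number of genes at 1 FPKM or more in all 5 libraries, 11959, became 12973 at 0.5 FPKM, 8204 at 5 FPKM, 12436 by the mean over libraries, 12899 in TPM and 11999 to 12014 without a replicate. Shares of the FPKM total moved with the genes that make up the total. After each exclusion of genes, the 10 highest were picked anew from those left. The pancreatic genes excluded are those of the acinar and islet lists, which hold no amylase but Amy2a5. Without the pancreatic genes in the total, the share of the 10 highest genes went from 14.3% to 14.48%, absorptive colonocyte from 3.18% to 3.39%, goblet cell from 2.78% to 2.964%, immunoglobulin from 1.769% to 1.886%, smooth muscle from 0.5329% to 0.5681% and mitochondrially encoded genes from 8.209% to 8.752%. Without the mitochondrially encoded genes, the 10 highest took 11.98%, pancreatic acinar genes 6.747%, absorptive 3.464%, goblet 3.029%, immunoglobulin 1.928% and smooth muscle 0.5806%. A list left out of the total has no share there, so the pancreatic and mitochondrial lists gave no value under their own exclusion. As shares of fragments in place of FPKM, pancreatic acinar genes took 4.131%, absorptive 3.023%, goblet 2.073%, smooth muscle 0.5786% and mitochondrial 6.837%. The fragment share of the 10 highest genes, 14.29%, and of immunoglobulin, 1.783%, moved by less than the spread between libraries. Without a replicate the 10 highest genes took 14.28% to 14.33%, pancreatic acinar genes 6.179% to 6.204%, absorptive 3.172% to 3.19%, goblet 2.772% to 2.786%, immunoglobulin 1.765% to 1.776%, smooth muscle 0.5306% to 0.5357% and mitochondrial 8.188% to 8.239%. The variance ratio stayed between 2.115 and 2.263 without a replicate, and was 2.222 with a minimum of 100 fragments and 2.149 after rescaling. Neighbours that did not overlap numbered 559 in TPM and 591 to 609 without a replicate. Rescaling as if pancreatic genes were absent raised the levels of the other named genes 1.066 to 1.067 times. Leaving out 1 of 5 libraries moved the mean of 42 of 653 named genes by over 1.5 times. Only 1 of these, Alb, had a mean of 1 FPKM or more, and it went from 1.07 to 0.338 FPKM without replicate 1. No paired analysis was possible because only 1 group was described and no test was run. Depth limits levels under about 0.1 FPKM, and near-identical copies, an unstated genome build and replicates of unstated origin limit the rest.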
